A study of Mus musculus with 20 samples.

Results

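The perineuronal net genes are the genes of the matrix proteins that build the net around certain neurons. The set was chosen by gene name and holds 7 of the 25190 genes in the table, namely Acan, Bcan, Ncan, Vcan, Hapln1, Hapln4 and Tnr. All 7 were measured in each of the 20 libraries, with between 131 and 9183 reads per gene and library.

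RNA from the mouse hippocampus was sequenced in 4 groups of 5 mice, all wild-type males of the C57BL/6JOlaHsd strain at 4 months of age that had received infusions into the dorsal hippocampus through bilateral cannulas. The Vehicle mice received artificial cerebrospinal fluid with no small RNA. The Control mice received small RNAs (sRNAs) extracted from post-mortem human hippocampi of individuals with no psychiatric illness and combined into 1 pool, and the Pool 1 and Pool 2 mice received sRNAs combined in the same way from separate sets of patients with schizophrenia. Each treatment was therefore 1 pool of RNA, so the 5 mice of a group are replicates of an infusion and not of a donor. All mice went through behavioural tests, and the tissue was collected 24 hours after the last one. The sample labels call the tissue hippocampal, whereas the series text names the CA1 field.

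Perineuronal nets are dense lattices of extracellular matrix that wrap the cell body and proximal dendrites of fast-spiking parvalbumin interneurons and, in the hippocampus, also of CA2 pyramidal neurons. Their backbone is hyaluronan, a long sugar polymer made at the cell membrane. Lecticans, which are proteoglycans that carry chondroitin sulfate chains, bind hyaluronan at one end. Link proteins lock that bond, and tenascin-R joins the other ends of the lecticans to each other. Nets are known for limiting plasticity in the mature brain. Brevican, neurocan and versican also occur in the looser matrix between cells, so their mRNA in bulk tissue is not a measure of nets alone.

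The members fall into 3 roles. The lecticans are aggrecan (Acan, chr7:79053483-79115099, plus strand), the lectican most closely tied to dense nets, brevican (Bcan, chr3:87987531-88000230, minus strand), which is the short lectican of the adult brain, neurocan (Ncan, chr8:70093085-70120873, minus strand), a lectican of the nervous system, and versican (Vcan, chr13:89655312-89742509, minus strand), which is spliced into long and short forms. The link proteins are Hapln1 (chr13:89539796-89611652, plus strand), the cartilage link protein that is also a main link protein of nets, and Hapln4 (chr8:70083457-70090862, plus strand), a brain link protein that pairs with brevican. Tenascin-R is encoded by Tnr (chr1:159523769-159931729, plus strand). All positions are on GRCm38, and each value is for the whole gene, since reads were counted over the exons of all its transcripts.

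Both link protein genes lie beside a lectican gene. Hapln4 and Ncan converge on chromosome 8 with 2222 bases between their ends, and Hapln1 and Vcan converge on chromosome 13 with 43659 bases between theirs. The other 2 link protein genes of the family are also neighbours of lecticans, Hapln3 ending 2 bases from Acan and Hapln2 lying 21519 bases from Bcan. An antisense gene overlapped Vcan (Gm4117) and had a mean of 9.9 reads per library, and a pseudogene inside Hapln1 (Gm8546) had 8.75, both far below the reads of the genes around them.

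Promoter sequences were taken from RefSeq (GRCm38.p6), as windows of 300 bases around RefSeq's own start of the gene, which can lie apart from the gene positions above, and were found for 6 of the 7 members (not for Hapln4). They are shown for Vcan and Tnr, the 2 members whose levels varied most closely together across mice, and for Acan, the net lectican with the lowest level per length. Capitals mark GC boxes, searched as GGGCGG on both strands with overlaps counted.
Acan, chr7:79052976-79053275, plus strand: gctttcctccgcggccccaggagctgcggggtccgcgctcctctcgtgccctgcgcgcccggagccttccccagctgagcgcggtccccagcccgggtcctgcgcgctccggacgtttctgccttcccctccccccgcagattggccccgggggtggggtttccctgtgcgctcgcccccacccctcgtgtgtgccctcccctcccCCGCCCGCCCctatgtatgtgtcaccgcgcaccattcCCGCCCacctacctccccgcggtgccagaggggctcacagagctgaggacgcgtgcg
Vcan, chr13:89742463-89742762, minus strand: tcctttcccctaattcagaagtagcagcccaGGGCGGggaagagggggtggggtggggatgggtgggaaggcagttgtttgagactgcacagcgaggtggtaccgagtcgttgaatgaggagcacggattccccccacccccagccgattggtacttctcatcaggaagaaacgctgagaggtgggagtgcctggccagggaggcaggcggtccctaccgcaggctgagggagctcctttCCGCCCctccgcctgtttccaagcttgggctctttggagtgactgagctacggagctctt
Tnr, chr1:159523519-159523818, plus strand: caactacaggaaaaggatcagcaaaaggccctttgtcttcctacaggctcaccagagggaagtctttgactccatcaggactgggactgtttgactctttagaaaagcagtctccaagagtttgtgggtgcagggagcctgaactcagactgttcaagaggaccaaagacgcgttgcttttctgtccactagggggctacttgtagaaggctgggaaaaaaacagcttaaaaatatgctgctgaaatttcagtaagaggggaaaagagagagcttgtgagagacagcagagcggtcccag
The Acan window held 3 GC boxes and was 74.0% G or C, the Vcan window held 2 and was 61.0%, and the Tnr window held none and was 48.0%. Bcan and Ncan held 1 each (64.0% and 56.7% G or C), and Hapln1 held none (54.3%). A GC box was present in 35.7% of the 32851 mouse promoter windows, whose median G or C content was 52.7%. CCAAT, present in 37.4% of all windows, was found once each in Acan, Bcan and Vcan, TATAAA (13.6% of all) once in Ncan, and CACGTG (7.15% of all) in none of the 6.

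Libraries held between 20588280 and 25543939 counted reads. Levels are given as CPM, the reads of a gene per 1000000 counted reads of the library after scaling by the trimmed mean of M values, and 3 reads correspond to 0.117 to 0.146 CPM depending on the library. None of the markers of CA1, CA2 and dentate neurons, of fast-spiking interneurons and of astrocytes had 0 reads over the 20 libraries together. The summed level of each of these lists was above 0 in every library, so the markers of fields other than CA1 were present. Some libraries stood apart. Pool 2 replicate 1 had a summed microglial marker level of 1347 CPM, where no other library exceeded 648 CPM, and its fast-spiking interneuron sum was 669.8 CPM against 910.1 CPM or more elsewhere. That sum of 10 markers includes Gad1 (mean 364 CPM) and Gad2 (184 CPM), genes of GABA neurons in general, beside Pvalb at 26.6 CPM. Vehicle replicate 4 had a choroid plexus sum of 12466 CPM. Thalamic markers summed to 148.4 to 618.4 CPM in Pool 2 and 134.0 to 263.6 CPM in Control. To follow RNAs without a poly(A) tail, 6 genes were summed, namely Gm42418, Gm26917, Lars2, Rn7sk, Gm23935 and Mir6236. Lars2 is a protein-coding gene, so the sum is not of such RNAs alone. These 6 genes summed to 572 to 1852 CPM in Control, 1764 to 14083 CPM in Pool 1 and 3456 to 9605 CPM in Pool 2. In Vehicle, which received no sRNA, they summed to 665 to 5150 CPM, a range that overlapped both pools. The part of all these marker levels in the results that follow was not tested beyond the libraries left out.

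The 7 genes differed far more from each other than between groups, where the means of a member were at most 1.23-fold apart (Hapln1). Dividing the level by the exonic length of each gene (CPM per kb of exon, mean over the 20 libraries), Bcan was highest with 76.2, followed by Hapln4 with 35.3, Ncan with 31.6 and Tnr with 20.3. Hapln1 came next with 5.29, Vcan had 1.85 and Acan had 1.34. Bcan exceeded every other member in every library on this scale, with 58.6 to 95.5 CPM per kb. Hapln4 and Ncan are neighbours in this order whose ranges overlapped, 23.3 to 48.1 against 26.05 to 38.1 CPM per kb, and so are Vcan and Acan, 1.21 to 2.37 against 0.776 to 2.00. The exonic length was the union of all annotated exons, so per-length levels of genes with several transcripts, such as Vcan with 9, are low estimates, whereas Ncan has 1 transcript.

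**Figure D1:**
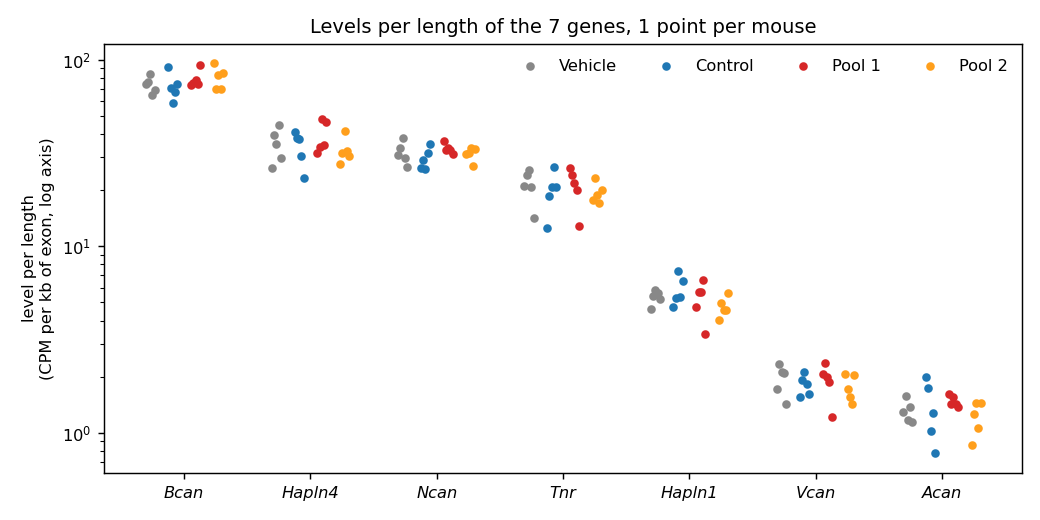
Level per length of the 7 net genes (CPM per kb of exon, log axis) in each of the 20 mice, coloured by group, with genes ordered by their mean. Bcan, at 58.6 to 95.5 CPM per kb, lies above all other members in all mice, and Vcan and Acan lie lowest with overlapping ranges.

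Within the lecticans, the composition was nearly the same in all groups. Bcan made up between 67.8% (Vehicle) and 70.0% (Pool 2) of the summed per-length level of the 4 lecticans as group means, and Ncan between 27.4% (Pool 2) and 29.2% (Vehicle). Acan, the lectican of dense nets, contributed 1.07% ± 0.236 (SD, n = 5) in Pool 2 and 1.29% ± 0.403 (SD, n = 5) in Control. Between the link proteins, the per-length level of Hapln4 was on average 6.55 times that of Hapln1 in Vehicle (SD 1.07), 6.06 times in Control (SD 1.98), 8.01 times in Pool 1 (SD 3.33) and 6.98 times in Pool 2 (SD 1.36), with single mice ranging from 3.58 to 13.6 times. The highest of these ratios belonged to Pool 1 replicate 5.

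Whether sRNAs from patients changed net gene expression was asked by comparing Pool 1 and Pool 2 with Control. The effect of infusing the 1 control pool of human sRNAs was asked by comparing Control with Vehicle. A gene was counted as changed where its absolute log2 fold change was at least 0.3 and its unadjusted p-value was under 0.05, the threshold used by the study, here with edgeR's quasi-likelihood test on all genes. None of the 7 net genes was past this threshold in Pool 1 minus Control, where 3.48% of all genes were, or in Pool 2 minus Control, where 6.22% of all genes were. None was past it in Control minus Vehicle (5.1% of all genes) or in Pool 2 minus Pool 1 (6.82% of all genes). The study also kept genes with a mean normalized count under 10 out of its calls, and these shares are without that floor. After Benjamini-Hochberg adjustment over all 25190 genes no member was under 0.05 in any of the 4 comparisons by edgeR (lowest adjusted p 0.635) or by DESeq2, and by edgeR 0% of all genes were. At an unadjusted p under 0.05, 1 member was found with each tool, Hapln1 in Pool 2 minus Control. In that comparison 1939 of the 25190 genes were under 0.05 by edgeR and 1778 by DESeq2. With DESeq2, the tool of the study, Hapln1 was past the fold threshold as well (-0.31, unadjusted p = 0.0424), among 1284 genes that were. DESeq2 gave an adjusted p under 0.05 to 7, 18, 0 and 115 genes in the 4 comparisons, in the order above, none of them a member.

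The F test of edgeR across the 4 groups gave unadjusted p-values between 0.237 (Hapln1) and 0.880 (Tnr) for the members, where 7.86% of all genes were under 0.05. Exact two-sided permutation tests of single members between each 2 of the 4 groups gave no p under 0.05 in 42 tests, with 0.0794 as the smallest (Acan, Pool 2 against Pool 1) and 0.00794 as the smallest possible with 5 mice against 5. The groups overlapped in all of these pairs. When the groups were ordered by their mean for each member, the smallest exact permutation p of 2 neighbours in that order was 0.365. Neighbours were picked as close in these same data, so that value cannot show that the groups are alike. The estimates of all members ran from a log2 fold change of -0.298 up to 0.20, and the 95% intervals reached from -0.68 (Acan, Pool 2 minus Pool 1) to 0.54 (Hapln4, Pool 1 minus Control).

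**Figure D2:**
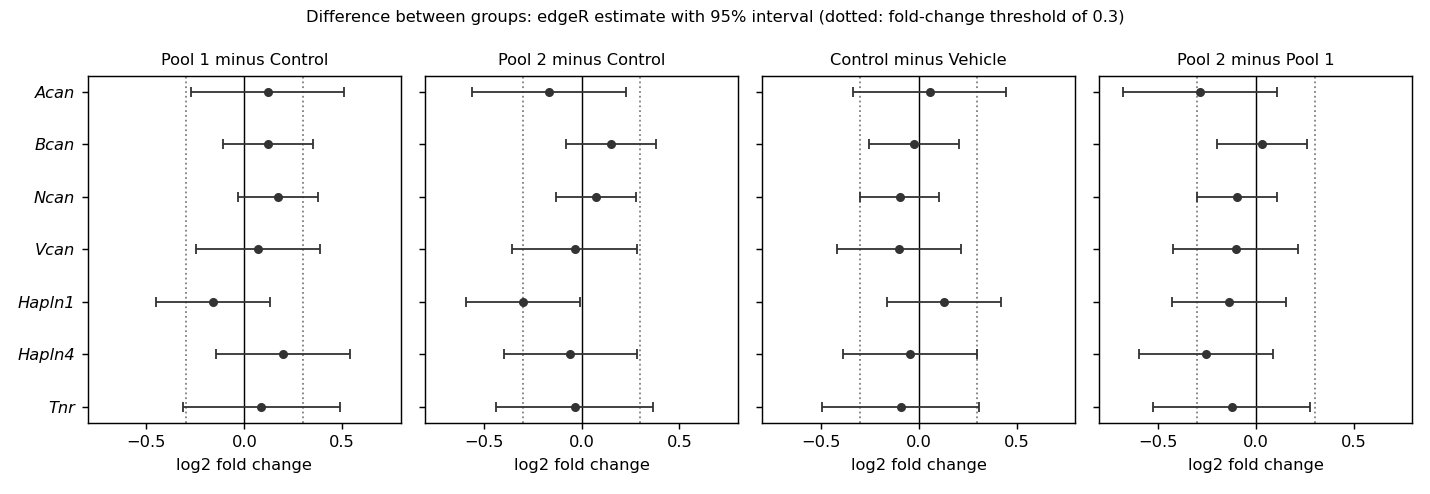
Log2 fold change of each net gene in the 4 comparisons, as edgeR estimates (points) with 95% intervals (whiskers); dotted lines mark the fold-change threshold of 0.3. No point lies past a dotted line, and only the interval of Hapln1 in Pool 2 minus Control, from -0.59 to -0.0076, lies wholly on one side of 0.

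Among the link proteins, Hapln1 came closest to the threshold. Its level in the 5 Control mice was 27.8, 31.3, 43.3, 31.5 and 38.5 CPM. In the 5 Pool 2 mice it was 23.9, 29.3, 26.8, 26.9 and 33.2 CPM. Control replicates 3 and 5 were above all Pool 2 mice, Pool 2 replicates 1, 3 and 4 were below all Control mice, and the other mice of both groups overlapped. The log2 fold change was -0.298 (SE 0.140, 95% interval -0.59 to -0.0076, unadjusted p = 0.0447 and adjusted p = 0.635 by edgeR), just short of the fold threshold, and the exact permutation test gave p = 0.0873. It was past the threshold in 10 of 29 alternative analyses. These were DESeq2, its size factors in edgeR, the filterByExpr filter, only the 2 groups compared, 17 libraries, and leaving out Vehicle replicate 1, Control replicate 1, 2 or 4 or Pool 2 replicate 5, and the estimate lay between -0.37 without Pool 2 replicate 5 and -0.20 without Control replicate 3.

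The mean Hapln1 levels of the other groups lay between those of Pool 2 and Control. The Vehicle mice had 27.3, 32.1, 34.4, 33.0 and 30.7 CPM, and the Pool 1 mice had 28.0, 33.5, 33.6, 39.0 and 20.1 CPM, with Pool 1 replicate 5 the lowest of all 20. The group means were 34.5 ± 6.28 CPM in Control, 31.5 ± 2.70 in Vehicle, 30.9 ± 7.17 in Pool 1 and 28.0 ± 3.48 in Pool 2 (SD, n = 5 each). Against Vehicle, the Pool 2 difference in mean log2 CPM was -0.17 (exact permutation p = 0.111). Summed fast-spiking interneuron markers ranged from 929 to 1016 CPM in Control and from 669.8 to 1045 CPM in Pool 2, with the lowest value in Pool 2 replicate 1, the Pool 2 mouse that was also lowest in Hapln1. Without that library and Vehicle replicate 4 the log2 fold change of Hapln1 was -0.25 (unadjusted p = 0.118, edgeR). In bulk tissue, fewer cells of a type and less RNA per cell cannot be told apart.

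Hapln4, the partner of brevican, varied 2.06-fold between mice, and its groups overlapped. It reached 161, 150, 147, 120 and 91.4 CPM in Control, 125, 134, 189, 137 and 182 CPM in Pool 1, and 109, 123, 163, 128 and 120 CPM in Pool 2. The lowest Control mouse was below every mouse of either pool, and the highest Pool 1 mice, replicates 3 and 5, were above all others. Vehicle mice had 103, 156, 139, 176 and 116 CPM. The log2 fold change was 0.20 (SE 0.164) in Pool 1 minus Control, -0.06 (SE 0.164) in Pool 2 minus Control and -0.25 (SE 0.164) in Pool 2 minus Pool 1. The last was past the threshold only without Pool 2 replicate 3, among the single libraries left out, at -0.35.

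Of the lecticans, Acan had the lowest level and the widest relative spread. Its 5 Control values, 14.9, 12.9, 7.64, 9.54 and 5.79 CPM, held both the highest and the lowest of all 20 mice, a 2.58-fold range. Pool 1 was tight at 12.1, 10.6, 11.6, 10.6 and 10.2 CPM, whereas Pool 2 had 6.40, 9.46, 10.8, 7.89 and 10.8 CPM. Vehicle mice had 9.65, 11.7, 8.80, 10.2 and 8.52 CPM. The spread of Control thus enclosed the 3 other groups. The largest difference was Pool 2 minus Pool 1 with a log2 fold change of -0.28 (SE 0.190), for which the exact permutation test gave p = 0.0794. Its direction in Pool 2 minus Control rested on Control replicate 1, -0.17 with it and 0.012 without it.

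The abundant lecticans were steady. Bcan had group means of 299 ± 28.9 CPM in Vehicle, 294 ± 49.0 in Control, 320 ± 35.2 in Pool 1 and 327 ± 44.8 in Pool 2, and Ncan 229 ± 31.2, 214 ± 27.8, 241 ± 14.7 and 225 ± 19.7 CPM in the same order (SD, n = 5 each). Across all mice Bcan spanned 1.63-fold and Ncan 1.46-fold, the narrowest ranges of the set. Ncan in Pool 1 minus Control had a log2 fold change of 0.17 (SE 0.0983, unadjusted p = 0.0954, edgeR). Bcan was highest in Pool 2 replicate 1 (388 CPM) and Pool 1 replicate 5 (381 CPM), the 2 mice in which Hapln1 was lowest. Vcan had group means of 28.0 ± 5.22, 26.2 ± 3.36, 27.5 ± 6.16 and 25.5 ± 4.14 CPM (SD, n = 5 each), single mice between 17.5 and 34.3 CPM, and log2 fold changes of 0.07, -0.03, -0.10 and -0.10 in the 4 comparisons.

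Tnr, which crosslinks the lecticans, had close group means but the widest spread within groups of all members. The means were 272 ± 57.1 CPM in Vehicle, 255 ± 65.1 in Control, 271 ± 66.4 in Pool 1 and 249 ± 30.7 in Pool 2 (SD, n = 5 each). It was measured at 272, 309, 331, 267 and 182 CPM in Vehicle, 161, 239, 268, 341 and 267 CPM in Control, 340, 310, 281, 259 and 166 CPM in Pool 1, and 227, 297, 244, 220 and 257 CPM in Pool 2. The lowest mice of Vehicle, Control and Pool 1 were below all Pool 2 mice, and the groups overlapped. The log2 fold changes of Tnr were 0.09, -0.04, -0.09 and -0.12 (SE 0.192 each).

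**Figure D3:**
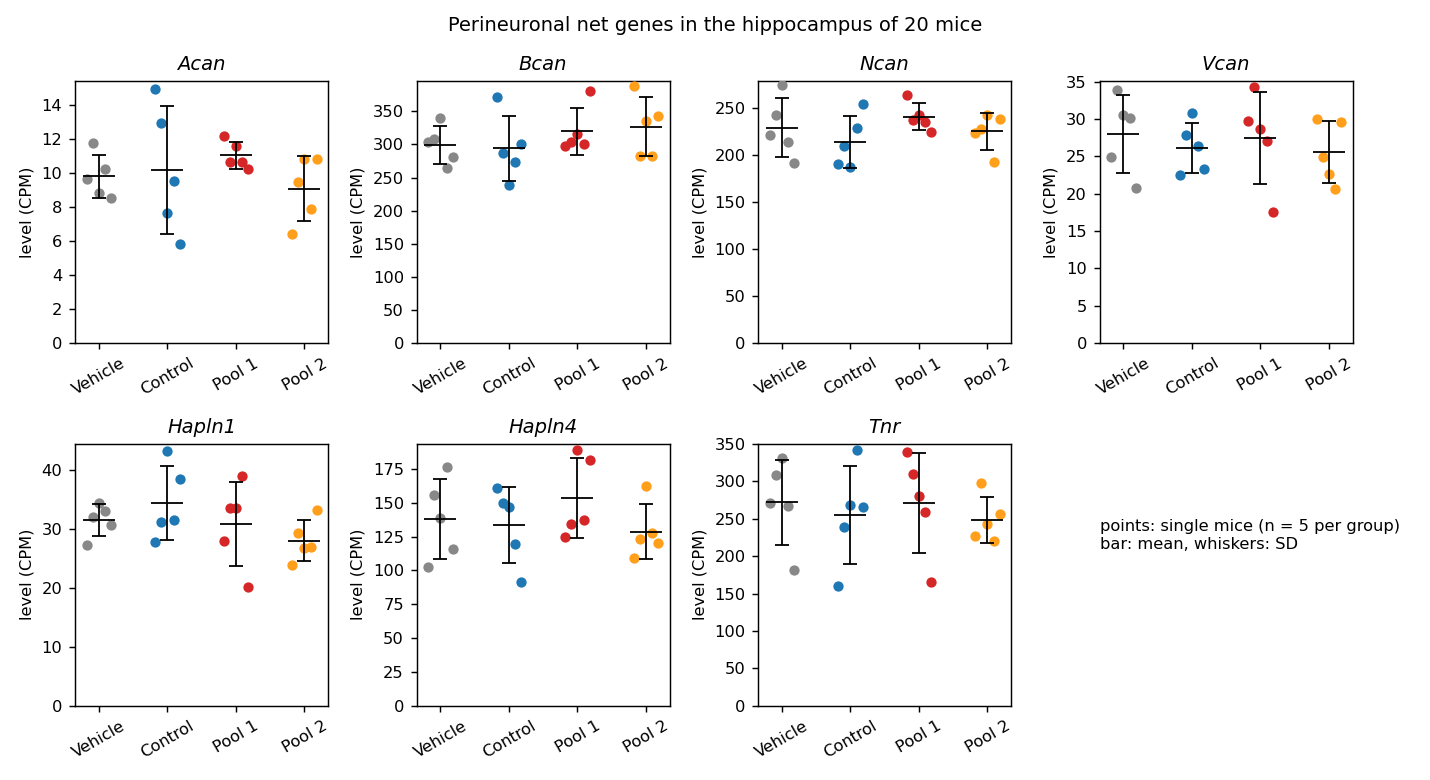
Level of each net gene (CPM) in the 4 groups, with 1 point per mouse, bars for the mean and whiskers for the SD (n = 5). The groups overlap in all 7 panels, Hapln1 reaches 43.3 CPM in Control and no more than 33.2 CPM in Pool 2, and the lowest Tnr values in Vehicle, Control and Pool 1 lie below all Pool 2 mice.

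As a list, 6 of the 7 members had a positive log2 fold change in Pool 1 minus Control (median 0.12, against -0.0054 for all genes), with Hapln1 the exception at -0.16. In Pool 2 minus Control 2 were positive, Bcan at 0.15 and Ncan at 0.07, and the median was -0.04 (all genes 0.0029). In Control minus Vehicle 2 were positive with a median of -0.04 (all genes -0.012), and in Pool 2 minus Pool 1 only Bcan was positive, with a median of -0.12 (all genes 0.019). These comparisons share mice, and none of the values passed the threshold.

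The mice differed from each other within groups more than most genes did. The within-group SD of log2 CPM was 0.340 for Tnr, where genes of similar level had a median of 0.160 and 95.9% of them had a smaller one. For Hapln4 it was 0.287 (median of genes of similar level 0.157), for Vcan 0.274 (0.164), for Acan 0.335 (0.214) and for Hapln1 0.249 (0.163). Bcan (0.184 against 0.159) and Ncan (0.155 against 0.160) were close to genes of their level. The net genes did not vary as 1 block. Over the 20 mice, Vcan and Tnr had a Spearman correlation of 0.62, Ncan and Tnr of 0.59, Acan and Hapln4 of 0.56 and Vcan and Hapln1 of 0.55. Pearson values were also taken without the 2 libraries farthest from the median of the second gene. They went from 0.72 to 0.59, 0.64 to 0.66, 0.61 to 0.45 and 0.53 to 0.26 in the same order. Brevican and its usual partner were not close, with 0.16 for Bcan and Hapln4, and Bcan and Hapln1 had -0.31. Without Pool 2 replicate 1 these were 0.32 and -0.20. All such correlations are descriptions over libraries that share a scaling, and carry no test.

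**Figure D4:**
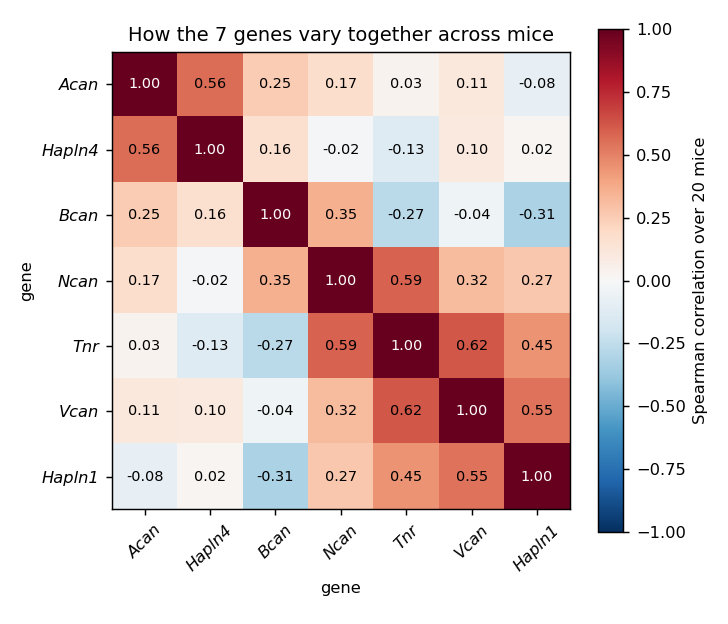
Spearman correlation of log2 CPM between each 2 of the 7 net genes over the 20 mice (colour scale from -1 to 1, value printed in each cell). Acan and Hapln4 have 0.56, and the values among Tnr, Vcan, Ncan and Hapln1 run from 0.27 to 0.62. Bcan has 0.35 with Ncan, within that range, and is negative with Tnr, Hapln1 and Vcan.

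The pair of Acan and Hapln4 moved with markers of CA2 pyramidal neurons. The summed level of 8 CA2 markers ranged from 212 to 524 CPM in Control, 301 to 459 CPM in Pool 1, 234 to 360 CPM in Pool 2 and 277 to 396 CPM in Vehicle. Hapln4 had a Spearman correlation of 0.84 with this sum (Pearson 0.85, and 0.83 without the 2 farthest libraries), and Acan had 0.68 (Pearson 0.74, and 0.56 without them). With group means removed, the Pearson values were 0.86 and 0.72. The lowest CA2 sum and the lowest Hapln4 and Acan levels were in the same mouse, Control replicate 5, and the highest CA2 sum and the highest Acan level were in Control replicate 1. Of the single markers, Rgs14, a signalling regulator enriched in CA2, had 0.77 with Hapln4 and 0.57 with Acan, and Necab2 had 0.79 and 0.62, while Pcp4 (-0.19 and -0.13) and Ntf3 (-0.09 and 0.15) did not follow. Rgs14 (172 CPM) and Necab2 (73.9 CPM) had the highest levels in the sum, so their values are not independent of it.

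Markers of other fields and of the neocortex had mixed signs. Hapln4 had a Spearman correlation of 0.39 with the sum of CA1 markers, of -0.68 with that of 8 dentate granule cell markers, among which Il16 alone was positive (0.55), and of -0.60 with that of neocortical markers. Dentate marker sums ranged from 267 to 703 CPM in Control and from 256 to 770 CPM in Pool 1. With the sum of fast-spiking interneuron markers, Hapln4 had 0.31 and Acan 0.25 (0.22 and 0.13 without Pool 2 replicate 1), whereas Tnr had 0.60 and Hapln1 and Vcan 0.55 each. Fast-spiking interneurons are the cells most often wrapped by nets. The highest level in the sum was that of Gad1 (364 CPM), so it does not follow those cells alone. In Pool 1 minus Control 1 of the 8 CA2 markers was past the threshold, Pcp4, which was lower (-0.65, unadjusted p = 0.00367, edgeR). Of all genes, 1.99% were past the threshold and lower in that comparison. In Pool 2 minus Control none of the 8 was past it, 1 had a positive log2 fold change, and their median was -0.33, beside -0.06 for Hapln4 and -0.17 for Acan. Bcan had 0.74 with oligodendrocyte precursor markers, among which Gpr17 had 0.75, Pdgfra 0.17, Bmp4 0.05 and Lhfpl3 -0.41, and Ncan had 0.58 with astrocyte markers, a sum in which Slc1a2, the astrocytic glutamate transporter, had the highest level (2893 CPM) and 0.65 on its own, while 5 of the 10 markers were negative, from -0.37 for S100b to -0.07 for Aldh1l1. The part of tissue composition in the differences between mice was not tested.

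Tnr moved with the balance of long and short transcripts of a library. For this balance, the log2 CPM of a gene was taken relative to its mean over the libraries, and the median over the 3698 genes with at most 2.75 kb of exon was subtracted from that over the 3699 genes with at least 6.83 kb. Control replicate 1 (-0.41), Pool 1 replicate 5 (-0.34) and Vehicle replicate 5 (-0.25) had the lowest values, and they are the 3 mice with the lowest Tnr, 161, 166 and 182 CPM. The Spearman correlation of Tnr with the balance was 0.95 (Pearson 0.94, 0.89 without the 2 farthest libraries, and 0.95 with group means removed). It was 0.63 for Vcan, 0.52 for Ncan, 0.38 for Hapln1, 0.04 for Acan, -0.17 for Hapln4 and -0.28 for Bcan. Tnr with 12.87 kb, Vcan with 14.46 kb, Acan with 7.469 kb and Ncan with 7.195 kb of exon are themselves among the long genes, and of these Acan did not follow its length class. In Pool 2 minus Control the log2 fold change of Tnr was -0.04 with all libraries and -0.16 without these 3. That of Hapln1 was -0.37 without them (unadjusted p = 0.00404, edgeR), in a fit chosen after seeing the data. It was the smallest p of Hapln1 in this comparison among the 29 alternatives. Of the 3 mice left out, Control replicate 1 had the lowest Hapln1 of Control (27.8 CPM). Pool 1 replicate 5 had the lowest of all 20 (20.1 CPM). The RNA integrity of single mice was not given in the sources used here, and what set the balance was not tested.

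**Figure D5:**
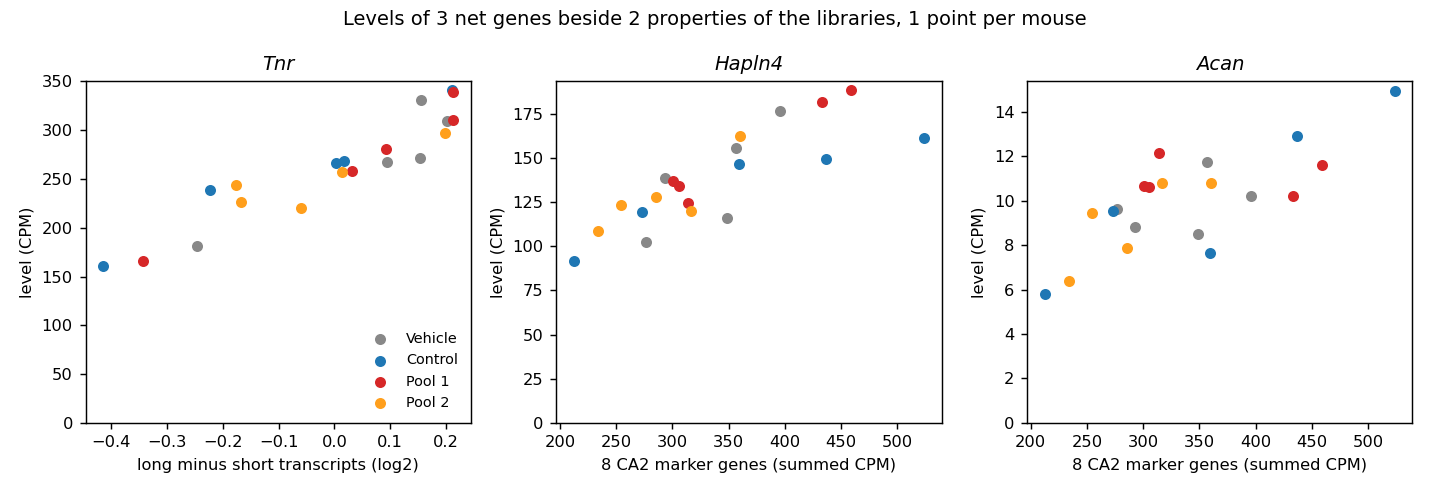
Level (CPM) of Tnr against the balance of long and short transcripts (log2), and of Hapln4 and Acan against the summed level of 8 CA2 marker genes (CPM), with 1 point per mouse coloured by group. Tnr is lowest in the 3 mice with the lowest balance (-0.41 to -0.25), and Hapln4 and Acan are both lowest in the mouse with the lowest CA2 sum, 212 CPM.

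For each member, the genes whose levels were most alike over the 20 mice were sought among 14796 genes with a mean of at least 1 CPM, by Spearman correlation. Tnr was most like Stox2 (0.99), Gatad2b (0.97) and 9930021J03Rik (0.97), and of the 560 genes above 0.8 with Tnr, 88.0% were in the long quartile, their median exonic length being 11.5 kb against 4.43 kb for all. Hapln4 was most like Nfatc2 (0.93), a calcium-dependent transcription factor, Lingo1 (0.93) and Rnft2 (0.91). Hapln1 was most like Tcf4 (0.92), Rab27b (0.91) and Ccny (0.91). The lecticans each had their own neighbours. Those of Bcan included Grin2c (0.90), an NMDA receptor subunit, and Ehmt2 (0.89), and those of Ncan included Sez6l (0.90) and Rai1 (0.86). Vcan was most like Cntnap5c (0.88), Mrs2 (0.85) and Gm38387 (0.85), and Acan had the loosest neighbours, Syt3 (0.77), Fyb2 (0.75) and Hspa1b (0.74). No other net gene was among these for any member.

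The rest of the net pathway was examined through 7 lists of genes. Among 10 other hyaluronan-binding or net matrix proteins, 1 was past the threshold in Pool 1 minus Control, Hapln3, higher by 0.51 on the log2 scale at only 1.03 CPM (unadjusted p = 0.0414, edgeR), where 1.48% of all genes were past it and higher. The call on Hapln3 was lost without Control replicate 2, 4 or 5 or Pool 1 replicate 1, 2 or 5. It was also lost with only the 2 groups compared and with the replicate block. In Pool 2 minus Control, where 5.2% of all genes were past it and higher, 2 of the 10 were, Cd44, the hyaluronan receptor, by 1.10 (unadjusted p = 0.00375, edgeR) and Cspg4 (NG2), the proteoglycan of oligodendrocyte precursors, by 0.35 (unadjusted p = 0.011, edgeR). Cd44 lay between 3.21 and 10.01 CPM in Pool 2 and between 1.48 and 4.05 CPM in Control, and its log2 fold change was 0.76 without Pool 2 replicate 1. Cspg4 was not past the threshold without Control replicate 3 (0.24). The most abundant members of this list, Spock2 (735 CPM) and Spock1 (233 CPM), had log2 fold changes of 0.15 and 0.17 in Pool 1 and 0.12 and 0.02 in Pool 2, none past the threshold.

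The enzymes that make the sugar chains of the net showed few differences. Of 4 genes of hyaluronan synthesis, none was past the threshold in Pool 1 minus Control. In Pool 2 minus Control 1 was, and higher, where 5.2% of all genes were. It was Has1, a hyaluronan synthase measured near the detection floor at a mean of 0.284 CPM (log2 fold change 1.09, unadjusted p = 0.016, edgeR), whose call was lost without Control replicate 4. Ugdh, which supplies a sugar precursor, and Has3 were not past the threshold in either comparison. Of 12 genes of chondroitin sulfate chain synthesis, 1 was past it and higher in Pool 1 minus Control (1.48% of all genes) and none in Pool 2 minus Control. It was Xylt1, which starts the chain on the core protein, with a log2 fold change of 0.32 (unadjusted p = 0.0282, edgeR), and its call was lost without Control replicate 1 or 2 or Pool 1 replicate 2. B3gat3 and Fam20b, the most abundant of this list, had log2 fold changes of -0.01 and 0.13 in Pool 1 and -0.02 and -0.04 in Pool 2. None of 9 measured chondroitin sulfotransferases and epimerases, among them Chst11 (90.8 CPM) and Ust (79.4 CPM), was past the threshold in either comparison.

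Genes that cut or protect the matrix were also examined. Of 18 measured proteases and hyaluronidases, none was past the threshold in Pool 1 minus Control and 2 were past it and higher in Pool 2 minus Control (5.2% of all genes), Adamts15, a lectican-cleaving protease (log2 fold change 0.78, unadjusted p = 0.00237, edgeR), and Ctss, the microglial cathepsin S (0.95, unadjusted p = 0.0336, edgeR). Ctss reached 478 CPM in 1 Pool 2 mouse, and without Pool 2 replicate 1, the mouse with the high microglial markers, its log2 fold change was 0.14. Adamts15 kept its call with each single library left out, between 0.59 and 0.91, and its levels overlapped between Pool 2 (3.61 to 9.06 CPM) and Control (2.58 to 4.89 CPM). Mmp24 (50.5 CPM) had log2 fold changes of 0.05 against Control in Pool 1 mice and -0.05 in Pool 2 mice. Of 7 protease inhibitors, none was past the threshold in Pool 2 minus Control. Cst3 (1135 CPM), the secreted inhibitor of cathepsins, and Serpine2 (146 CPM) had log2 fold changes of -0.31 and -0.08 in Pool 1 and -0.08 and 0.09 in Pool 2, not past it.

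Among 14 receptors and ligands that bind net components, 1 was higher and 1 lower in Pool 1 minus Control and none was past the threshold in Pool 2 minus Control, where 1.01% of all genes were past it and lower. Plxna1, a semaphorin co-receptor, was higher by 0.35 (unadjusted p = 0.0113, edgeR), where 1.48% of all genes were past the threshold and higher. Pool 1 mice lay between 240 and 302 CPM and Control mice between 202 and 220 CPM. How many of all genes have groups that lie apart was not counted. Otx2, a transcription factor that nets take up and that the choroid plexus makes, was lower by 1.27 (unadjusted p = 0.0496, edgeR), where 1.99% of all genes were past the threshold and lower, and it lost the call when any of 13 of the 20 single libraries was left out. Choroid plexus markers summed to 251 to 598 CPM in Pool 1 and 290 to 3394 CPM in Control. Ptprs (455 CPM), a receptor for chondroitin sulfate, and Cntn1 (429 CPM) had log2 fold changes of 0.19 and -0.01 in Pool 1 and 0.06 and -0.05 in Pool 2, short of the fold threshold. None of the genes of the 7 lists had an adjusted p under 0.05 in these 2 comparisons by edgeR, the smallest being 0.479 for Cd44 and Adamts15 in Pool 2 minus Control.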

How the data were processed

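Hippocampal RNA of 20 mice was sequenced from poly(A)-selected, strand-specific libraries with single-end reads of 50 nt, and the average RNA integrity number was 8.5. The authors deposited raw counts per gene, made after FastQC 0.11.5 by aligning reads to mm10 (GRCm38) with STAR and summing 2 sequencing rounds per mouse. Counts came from STAR's own gene counting on GENCODE annotation, which keeps reads that map to a single place. Totals of 20588280 to 25543939 reads per library set the precision, and floors of 3 reads cover counting error only. Groups follow the treatment labels.

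All 25190 genes entered 1 fit of 20 libraries and 4 groups with edgeR 4.0.16 (TMM scaling, robust quasi-likelihood test, R 4.3.3) and Benjamini-Hochberg adjustment over all genes. Calls needed a log2 fold change of 0.3 or more in either direction together with an unadjusted p under 0.05. Standard errors come from the F statistic. Single members were compared by exact two-sided permutation tests of mean log2 CPM (prior count 2). Exonic lengths come from GENCODE annotation of the same build, in which 99.8% of the genes matched. The fit was tested on simulated counts. Correlations are descriptions.

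Alternatives were DESeq2 1.42.0, its size factors, filters on low counts (filterByExpr, or a mean normalized count of at least 10), only the 2 groups compared, a default estimate of the spread, a replicate block, 18 libraries and each library left out. A fit of 17 libraries was chosen after seeing the data. The named genes were all members, the 3 genes most like each member, the 2 most abundant genes of each pathway list and every list gene past the threshold against Control, of which some are not reported here. Members and lists were chosen with earlier results of these data known. Replicate libraries all differed by more than counting error (chi-square over degrees of freedom 8.23 or more). Nothing in the labels says more of a replicate than its number and group, so p-values measure the spread between these mice.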

Additional observations from a re-analysis of the deposited data

Results flagged for a closer look

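Of the 28 combinations of a net gene and a group, 1 held a mouse far from the other 4, and chance alone does this in about 1 of 20 groups. Bcan was at 381.3 CPM in Pool 1 replicate 5, where the other 4 Pool 1 mice had 296.9 to 315.7 CPM. The gap to the nearest mouse was 0.777 of the range of the group, with 0.71 as the critical value of Dixon's test for 5 samples. The same mouse had the lowest Hapln1 and Vcan levels of all 20 mice (20.1 and 17.5 CPM), and its balance of long and short transcripts was -0.34. The cause was not tested.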

How the results depend on the processing

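Of the 28 log2 fold changes under 29 alternatives (812 values), 771 kept their direction and their side of the threshold, 29 turned direction and 12 came past the threshold. In Pool 2 minus Control 1 member, Hapln1, was past it with DESeq2 (-0.31), with edgeR on DESeq2 size factors (-0.31), with filterByExpr (-0.32), with only the 2 groups compared (-0.33) and with 17 libraries (-0.37), and 0 to 1 with single libraries left out. In Pool 2 minus Pool 1 it was 1 with only the 2 groups compared (Acan, -0.32) and 0 to 1 with single libraries left out, and in the test of the 4 groups it was 1 with 17 libraries (Hapln1). The cause was not tested. Apart from single libraries left out, the values that turned direction were Bcan in Pool 2 minus Pool 1 (-0.0058 with only the 2 groups compared, -0.038 with 18 libraries), Hapln4 in Control minus Vehicle (0.060 with 18 libraries), and, with 17 libraries, Acan (0.012) and Hapln4 (0.019) in Pool 2 minus Control and Acan in Control minus Vehicle (-0.167).

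With single libraries left out, Pool 1 minus Control ranged from -0.028 to 0.296 for Acan, -0.024 to 0.194 for Vcan and -0.040 to 0.221 for Tnr. Pool 2 minus Control ranged from -0.312 to 0.012 for Acan, -0.099 to 0.032 for Vcan, -0.166 to 0.019 for Hapln4 and -0.163 to 0.079 for Tnr. Control minus Vehicle ranged from -0.122 to 0.203 for Acan, -0.122 to 0.042 for Bcan, -0.124 to 0.066 for Hapln4 and -0.212 to 0.035 for Tnr, and Pool 2 minus Pool 1 from -0.038 to 0.103 for Bcan.

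Over all genes, 876, 1566, 1285 and 1718 were past the threshold in the 4 comparisons (Pool 1 minus Control, Pool 2 minus Control, Control minus Vehicle, Pool 2 minus Pool 1). They were 402, 969, 795 and 1133 when the mean normalized count had to reach 10, the floor the study used, where fewer genes were tested. With filterByExpr they were 426, 960 and 821 in the first 3. Deviations from the group means in same-numbered mice of different groups had correlations of -0.38 to 0.30 (30 pairs, 12 over 0.1). Their median was 0.019, against -0.0091 for mice of other numbers. Whether the numbers pair some of the mice was not tested. With the replicate block Hapln1 in Pool 2 minus Control was -0.29 (unadjusted p = 0.0421, edgeR), and no call on a member changed.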
